A study of Mus musculus with 16 samples.

Results

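Bone marrow from WT mice given interleukin-1β (IL1β) was compared with bone marrow from WT mice given vehicle, over all lineage-negative (Lin-) cells and within the blood lineages that could be told apart by marker genes. Members were the cells of the 4 WT libraries in which 750 or more genes were detected and mitochondrial genes took no more than 10% of the unique molecular identifiers (UMIs, 1 for each captured RNA molecule). There were 48788 such cells of 64252 WT barcodes, 28638 from IL1β and 20150 from vehicle libraries, of 94917 cells kept in all 8 libraries of the series. WT meant *Tet2*fl/fl mice on a C57BL/6 background without the Cre transgene, and *Tet2*-KO meant Vav-Cre-*Tet2*-/- mice, in which Cre is driven by a promoter active throughout the blood system. All mice were 6 to 12 weeks old by their labels and received an injection every day over 5 weeks, either IL1β at a daily 500 ng a mouse or its vehicle. Each group had 4 mice in 2 libraries, so that each library pooled 2 mice of the same genotype and treatment, marked by hashtags (antibody-bound barcodes on the cell surface). Cells were depleted of mature lineages before capture on the 10x Chromium 3′ platform, so the shares given here are shares of what that selection left.

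IL1β binds IL1R1, which pairs with the accessory chain IL1RAP and signals through the adaptor MYD88, the IRAK kinases, the ubiquitin ligase TRAF6 and the kinase TAK1 (*Map3k7*) with its TAB partners. The pathway ends in degradation of the inhibitor IκBα and entry of NF-κB into the nucleus, where NF-κB also switches on its own inhibitors, among them IκBα itself (*Nfkbia*) and the ubiquitin-editing enzyme A20 (*Tnfaip3*). In marrow, IL1 is known for driving blood stem and progenitor cells towards myeloid output.

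Hashtags assigned 27553 of the 48788 cells (56.5%) to a mouse, left 19268 negative and marked 1967 as doublets, which were left out. The assigned cells numbered 6432, 2485, 5266 and 1421 in IL1β mice 1 to 4 and 4159, 698, 3263 and 3829 in vehicle mice 1 to 4, with 4388604 to 44152768 UMIs a mouse. Each WT group held 1 female and 3 males by *Xist* and Y-linked reads, and traces of the other sex's transcripts within a library showed that some cells were assigned to the wrong mouse of the pair. *Xist* stood at 278 CPM (a gene's UMIs scaled to a common total per mouse) in the male IL1β mouse 3 against 2451 in its female library partner IL1β mouse 4, and at 75.0 in the male vehicle mouse 2 against 1500 in vehicle mouse 1. Such mixing stays within a group, but it can make the 2 mice of a library look more alike than they were. The tests over mice use the spread between mice, and the part of mixing in their p-values was not tested. IL1β mice 1 and 2 and vehicle mice 3 and 4 were all male, so these reads could not show mixing in their libraries. Median mitochondrial percentages were 3.77 and 4.06 in the vehicle libraries and 4.83 and 5.19 in the IL1β libraries, and median UMIs per cell were 5385 and 6815 in the vehicle libraries and 5542 and 4436 in the IL1β libraries. Pairs of WT libraries had 18 to 57 cell barcodes in common.

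A cell was gated to a lineage where the lineage's marker genes made up at least 20 of 10000 UMIs, with at least 2 different markers seen. No other gate could be passed, apart from the dendritic cell gates below. The gates held 1754 neutrophil, 8328 monocyte, 3878 basophil, 13618 erythroid, 443 class II dendritic cell (DC), 85 plasmacytoid DC, 258 lymphoid progenitor and 235 T and NK cells. Cells passing both the class II DC and the monocyte gate were kept as class II DCs. Those passing both the plasmacytoid DC and the plasma cell gate were kept as plasmacytoid DCs. Class II DCs carried a median share of monocyte markers of 24.4 of 10000 UMIs. Each marker was highest in its own class, apart from *Ccr2* and *Ms4a6c* of the monocyte gate, which were highest in the class II DCs. Monocyte-gated cells carried a higher median share of granulocyte progenitor markers such as *Elane* and *Mpo* (67.2 of 10000 UMIs) than of their own markers (42.9), so the class is called monocyte-gated rather than monocyte. On either side of the 20-UMI limit 11024 cells lay within 2-fold of it for the erythroid gate and 7411 for the monocyte gate, 1707 and 3045 of them just below. Only 25.8% of erythroid cells carried a usable hashtag, 25.8% in each treatment group, so per-mouse erythroid shares are understated in both. The percentage was lower with IL1β in monocyte-gated cells (81.6% with vehicle and 67.3% with IL1β), basophils (71.5 and 55.0%), class II DCs (79.9 and 60.8%), lymphoid progenitors (77.3 and 60.0%) and T and NK cells (94.6 and 84.0%), and higher in neutrophils (66.9 and 69.9%) and plasmacytoid DCs (63.2 and 77.8%).

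Plasmacytoid DCs, the main producers of type I interferon, lost the largest part of their share among the 8 classes. They made up 0.385, 0.143, 0.337 and 0.522% of assigned cells in vehicle mice 1 to 4 and 0.0311, 0.0805, 0.0570 and 0% in IL1β mice 1 to 4. No IL1β mouse reached the lowest vehicle mouse, and the 0 of 1421 cells in IL1β mouse 4 allows a share of up to 0.211%. The mean fell from 0.347% ± 0.157 (SD, n = 4) to 0.0421% ± 0.0346 (SD, n = 4), which edgeR's quasi-likelihood test on cell numbers put at a log2 fold change of -2.96 (SE 0.54, adjusted p = 0.00042 over the 8 classes). By a two-sided exact permutation test over mice p was 0.0286, the smallest that 4 against 4 mice allow. By library, whose cells need no hashtag, the shares were 0.288 and 0.459% with vehicle and 0.0366 and 0.0292% with IL1β. Summed over all assigned cells without gating, the plasmacytoid DC markers stood at 12.8 to 39.1 CPM with vehicle and 5.28 to 15.6 CPM with IL1β. There IL1β mouse 4 lay above vehicle mouse 2, so the lack of overlap holds for the gated shares only. A further 32 WT cells passed this gate together with another and were not counted. Class II DCs, which present antigen to T cells, averaged 1.32% ± 0.654 with vehicle and 0.770% ± 0.377 with IL1β (SD, n = 4 each), overlapped between the groups and did not pass the test (log2 fold change -0.81, SE 0.40, adjusted p = 0.163, and exact permutation p = 0.229). Without IL1β mouse 3 the class II DC share passed edgeR's test, at a log2 fold change of -1.21.

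With 9 plasmacytoid DCs in the IL1β libraries their gate genes could not be tested between the groups, and 112 cells lay just below that gate against 85 within it. In the classes other than the DCs at least 1 gene of the gate itself differed between the groups within the gated cells, so their shares are given as descriptions with no test. Lymphoid progenitors were gated on early lymphoid genes such as *Dntt* and on B-lineage genes such as *Ebf1* and *Cd79a*. They made up 0.794, 1.29, 2.08 and 1.12% of vehicle mice and 0.202, 0.201, 0.190 and 0.563% of IL1β mice. The groups did not overlap, and the gate gene *Vpreb1*, part of the surrogate light chain of the pre-B cell receptor, was higher in IL1β lymphoid progenitors (log2 fold change 2.01). The other gate genes were not called, with *Igll1* at 1.20, *Il7r* at -0.96 and *Ebf1* at -0.62 without overlap between the groups, and *Vpreb3* at -0.87 and *Rag1* at -0.66 with overlap. These gene levels rest on only 2 IL1β and 3 vehicle mice. Between those mice 1366 of all 4324 genes tested in the class did not overlap. Basophils made up 5.41, 4.16, 5.06 and 8.12% of vehicle mice and 9.58, 10.4, 11.1 and 8.09% of IL1β mice, with *Prss34*, a basophil protease of the gate, lower (log2 fold change -0.59). Vehicle mouse 4 lay just above IL1β mouse 4, while by library the basophil shares were 4.55 and 5.37% against 9.47 and 10.5%.

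Erythroid cells averaged 14.7% ± 5.56 of assigned cells with vehicle and 10.1% ± 3.34 with IL1β (SD, n = 4 each), with overlap. By library, with untagged cells included, they made up 38.3 and 33.8% with vehicle and 23.6 and 23.6% with IL1β. Their gate genes *Aqp1* and *Tspo2* were lower in IL1β erythroid cells and *Rhag* was higher. Neutrophils averaged 4.85% ± 4.24 and 5.45% ± 3.17, monocyte-gated cells 21.8% ± 6.74 and 21.1% ± 2.10, and T and NK cells 0.855% ± 0.809 and 0.940% ± 1.18 with vehicle and IL1β respectively (SD, n = 4 each). All of these overlapped between the groups.

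**Figure D1:**
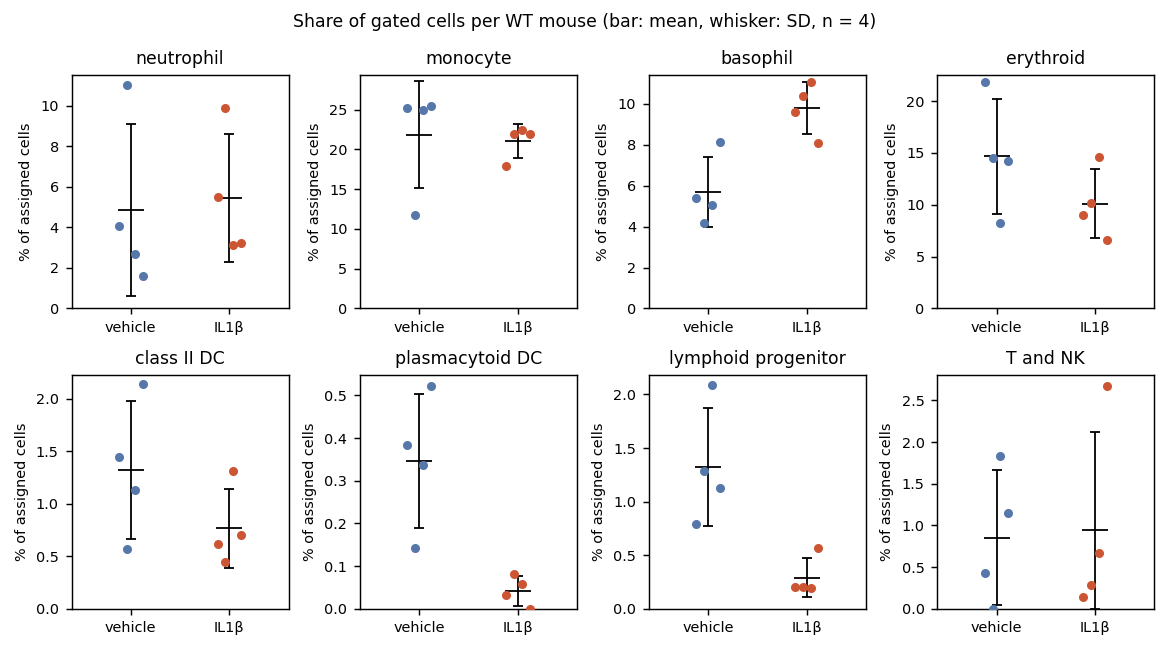
Share of assigned cells (percent, axis from 0) in each marker-gated class for the 4 WT vehicle and 4 WT IL1β mice, 1 point a mouse, with a bar at the mean and a whisker of 1 SD. Plasmacytoid DC and lymphoid progenitor shares of the IL1β mice all lie below those of the vehicle mice, and basophil shares of 3 IL1β mice lie above every vehicle mouse.

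Gene levels were compared as UMIs summed per mouse with edgeR's quasi-likelihood test (all 16 mice of the series in one fit), and a gene was called at a Benjamini-Hochberg adjusted p under 0.05 over all genes tested. All fold changes below are IL1β over vehicle in WT mice, with SE, and all levels are CPM. In all cells summed, where fewer cells of a type and less RNA per cell cannot be told apart, 3428 of 13146 genes (26.1%) were called, 1757 higher (13.4%) and 1671 lower (12.7%). With the 2 libraries of a group as the replicates instead of its 4 mice, 106 genes were called in all cells, and without vehicle mouse 1 2228 were called over mice. Mice of a library shared its preparation, so that the p-values over mice rest on only 2 separate preparations a group.

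Among genes of at least 30 CPM in IL1β mice, those that rose furthest in all cells included NF-κB feedback and early response genes. *Tnfaip3* (A20), at chromosome 10, 19000910-19015657 on the minus strand (GRCm38, GENCODE), stood at 10.3, 8.21, 6.25 and 4.17 CPM in vehicle mice and 62.6, 85.3, 62.6 and 77.2 CPM in IL1β mice. *Nfkbia* (IκBα), at chromosome 12, 55489410-55492647 on the minus strand, stood at 53.6, 44.9, 42.1 and 31.1 CPM with vehicle and 109, 362, 260 and 305 CPM with IL1β. Every IL1β mouse was above every vehicle mouse for both genes, and IL1β mouse 1 had the lowest *Nfkbia* of its group. *Tnfaip3* was 10.2-fold higher (log2 fold change 3.35 ± 0.34, adjusted p = 0.000236) and *Nfkbia* 6.04-fold higher (2.59 ± 0.30, adjusted p = 0.000594). With libraries as replicates both kept their calls, at log2 fold changes of 3.57 and 2.84. *Nfkbiz* (IκBζ, a nuclear NF-κB cofactor) rose 5.61-fold and *Ier3*, a stress-induced survival gene, 3.15-fold, and *Cd69*, an early activation receptor, went from 55.4 to 75.4 CPM with vehicle to 212 to 278 CPM with IL1β (3.69-fold, adjusted p = 0.000236). *Serpina3g*, a serine protease inhibitor, rose 2.88-fold.

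Of the 18 genes of NF-κB subunits and feedback all were tested and 15 rose, with a median log2 fold change of 0.98 against 0.02 over all genes. They included the subunits *Nfkb1*, *Rel*, *Rela* and *Relb*, the inhibitors *Nfkbid* and *Nfkbie*, the A20 partners *Tnip1* and *Tnip3*, and *Cyld*, a deubiquitinase that restrains the pathway. *Tnip3* went from 0.966 to 2.10 CPM with vehicle to 3.35, 28.3, 19.3 and 21.5 CPM with IL1β. With libraries as replicates 8 of the 18 were called. Among 17 tested inflammatory targets of NF-κB 6 rose and *Sod2*, the mitochondrial superoxide dismutase, fell, and by library 1 rose and none fell. *Saa3*, an acute-phase serum amyloid, was at 0 to 0.544 CPM in vehicle mice and at 18.4, 28.1, 11.6 and 2.21 CPM in IL1β mice, a difference of 5.30 ± 0.99 on the log2 scale (adjusted p = 0.00219). *Tnf* rose 5.39-fold, and *Icam1*, an adhesion receptor, 2.68-fold.

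Of the 17 genes of IL1 reception and its adaptors 7 rose and none fell, where 13.4% of all genes tested were called higher and 12.7% lower. The rises were small, and most lay past the ligand and receptor. *Irak3*, the inhibitory IRAK that damps the pathway, went from 15.4, 19.6, 20.1 and 21.5 CPM with vehicle to 33.5, 41.4, 30.6 and 30.6 CPM with IL1β (1.78-fold, adjusted p = 0.00327). *Il1rap* rose 1.65-fold, from 6.13 to 10.1 CPM with vehicle to 11.9 to 12.8 CPM with IL1β. The signalling genes *Tab2* (1.41-fold), *Traf6* (1.37-fold), *Irak1* and *Irak4* (1.28-fold each) and *Map3k7* (1.19-fold) also rose. The receptor *Il1r1* was at 2.80 to 4.42 CPM with vehicle and 2.12 to 4.32 CPM with IL1β (log2 fold change -0.28 ± 0.27, adjusted p = 0.486), and *Myd88* at 18.7 to 22 and 19.6 to 25.9 CPM (adjusted p = 0.247). The decoy receptor *Il1r2*, the antagonist *Il1rn*, *Il1a*, *Il1b*, *Irak2*, *Sigirr*, *Tab1* and *Tollip* did not pass the test. *Il1b* itself was at 8.21 CPM in vehicle mouse 2 and 0.725 to 1.69 CPM in the other 3 vehicle mice, against 4.38 to 10.5 CPM with IL1β (adjusted p = 0.0721). With libraries as replicates none of the 7 kept its call, and the median of the list was a log2 fold change of 0.40 there against 0.35 over mice, where that of all genes tested was 0.02.

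The 250 bases before a RefSeq start of *Nfkbia*, *Tnfaip3* and *Ier3* are shown because each holds a match to the NF-κB binding motif of 10 letters, searched on both strands. *Tnfaip3* had 2 promoter entries, and the one with the most matches is shown. The sequences are RefSeq's for GRCm38.p6, 5′ to 3′ on the strand of the gene, with the matches in capitals. They lie at chr12:55492648-55492897 (minus strand), chr10:19015411-19015660 (minus strand) and chr17:35821463-35821712 (plus strand). The starts used for *Tnfaip3* and *Ier3* lie inside the GENCODE genes, so that the *Tnfaip3* window lies almost wholly within the gene as placed above.
*Nfkbia*: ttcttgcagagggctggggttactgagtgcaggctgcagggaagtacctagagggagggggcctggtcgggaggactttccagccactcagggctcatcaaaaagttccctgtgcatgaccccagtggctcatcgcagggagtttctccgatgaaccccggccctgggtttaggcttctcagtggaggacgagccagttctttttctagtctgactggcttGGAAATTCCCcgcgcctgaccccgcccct
*Tnfaip3*: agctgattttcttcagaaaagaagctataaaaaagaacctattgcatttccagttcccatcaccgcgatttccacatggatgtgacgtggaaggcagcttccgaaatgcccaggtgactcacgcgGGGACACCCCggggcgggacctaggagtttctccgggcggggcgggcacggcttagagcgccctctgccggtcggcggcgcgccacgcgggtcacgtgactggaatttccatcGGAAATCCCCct
*Ier3*: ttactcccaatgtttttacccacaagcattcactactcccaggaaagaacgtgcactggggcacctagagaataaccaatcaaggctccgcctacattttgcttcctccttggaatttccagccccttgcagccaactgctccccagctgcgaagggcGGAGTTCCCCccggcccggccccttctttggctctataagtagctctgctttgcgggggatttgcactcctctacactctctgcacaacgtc
The match of *Nfkbia* lay 29 bases before the start, those of *Tnfaip3* 125 and 12 bases before it and that of *Ier3* 92 bases before it. Of all 32851 promoter entries 7.25% held at least 1 match, or 8.23% of 27025 genes, where a gene counted by its entry with the most matches. Of the 18 NF-κB subunit and feedback genes 15 had an entry and 9 of these (60%) a match, which were *Nfkb2*, *Rel*, *Nfkbia*, *Nfkbid*, *Nfkbie*, *Tnfaip3*, *Tnip1*, *Tnip3* and *Cyld*. Of the 6 named genes of at least 30 CPM that rose furthest in all cells 4 had an entry and all 4 a match, and of the 6 that fell furthest 3 had an entry and none a match. A match describes the letters of the window and does not show binding.

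Genes called higher in at least 4 of the 7 classes in which genes could be tested numbered 6. Marker, *Xist*, Y-linked, mitochondrial, immunoglobulin and T cell receptor genes were left out of this count. So were gene models without a symbol of their own. *Nfkbia* and *Rsrp1* (an arginine- and serine-rich protein of the nucleus) were called in 5 classes, and *Tnfaip3*, *Cd69*, *Dazap2* (an adaptor protein) and *Ssr3* (a subunit of the translocon-associated complex of the endoplasmic reticulum) in 4. *Nfkbia* rose 11.2-fold in erythroid cells, 5.00-fold in lymphoid progenitors, 3.75-fold in monocyte-gated cells, 2.10-fold in basophils and 1.96-fold in neutrophils. In class II DCs it was at 53.6 to 144 CPM with vehicle and 265 to 489 CPM with IL1β, and in T and NK cells at 106 to 239 against 216 and 335 CPM, without passing the test in either (adjusted p = 0.0676 and 0.271). The vehicle levels differed between classes too, since *Nfkbia* in vehicle mice stood at 11.1 to 28.8 CPM in erythroid cells but at 65.6 to 193 CPM in basophils.

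*Tnfaip3* rose in erythroid cells, from 5.99, 1.88, 2.49 and 1.29 CPM with vehicle to 43.9, 66.2, 58.3 and 73.6 CPM with IL1β (17.3-fold, adjusted p = 1e-06). It rose 19.0-fold in lymphoid progenitors, where 2 IL1β mice could be tested and most vehicle mice showed no UMI of it, 7.40-fold in monocyte-gated cells and 5.68-fold in neutrophils. In basophils 1 mouse in each group stood apart, with 141, 76.5, 32.3 and 19.8 CPM with vehicle and 546, 118, 58.1 and 54.3 CPM with IL1β, and the gene did not pass the test (adjusted p = 0.179). *Cd69* rose 4.91-fold in erythroid cells, 4.02-fold in neutrophils, 3.69-fold in lymphoid progenitors and 2.55-fold in monocyte-gated cells, and in basophils it was at 131 to 482 CPM with vehicle and 315 to 1376 CPM with IL1β, with overlap (adjusted p = 0.106). *Rsrp1* rose by less, 1.34- to 2.15-fold in its 5 classes, and IL1β mouse 1 lay within or below the range of the vehicle mice in monocyte-gated cells (213 against 252 to 279 CPM), basophils, erythroid cells and neutrophils. *Dazap2* rose 1.48- to 1.66-fold and *Ssr3* 1.35- to 1.74-fold, with no overlap between the groups in any of their 4 classes.

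**Figure D2:**
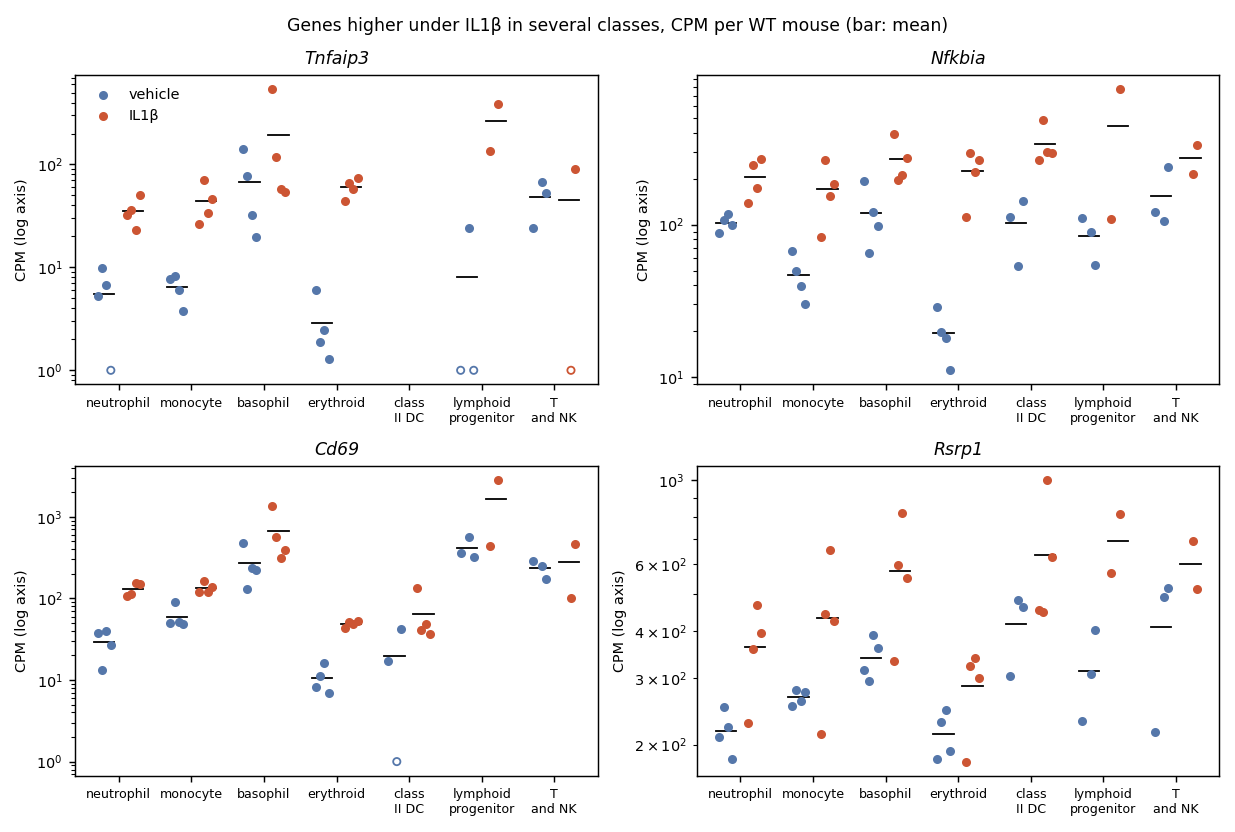
CPM (log axis) of *Tnfaip3*, *Nfkbia*, *Cd69* and *Rsrp1* in each WT mouse within each class, vehicle and IL1β side by side, with values under 1 CPM drawn as open points. *Tnfaip3* and *Nfkbia* separate completely in erythroid cells, monocyte-gated cells and neutrophils, and *Tnfaip3* overlaps in basophils.

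Genes called lower in at least 4 classes, with the same kinds of genes left out, numbered 90. The leading ones encoded ribosomal proteins, the structural parts of the cytosolic ribosome. *Rpl32* and *Rpl21* fell in 6 classes. *Rpl32* in erythroid cells stood at 7258, 6865, 6106 and 6071 CPM with vehicle and 4302, 4213, 3038 and 3452 CPM with IL1β (log2 fold change -0.81 ± 0.11, adjusted p = 0.000119). It fell by 0.80 on the log2 scale in monocyte-gated cells, by 0.77 in basophils, by 0.62 in neutrophils, by 1.35 in lymphoid progenitors and by 1.31 in T and NK cells. In class II DCs it stood at 5219 to 5898 CPM with vehicle and 2469 to 4377 CPM with IL1β (adjusted p = 0.0696). Within each group the mice of the library with mice 3 and 4 lay below those of the library with mice 1 and 2 in erythroid cells.

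Of 38 cytosolic ribosomal protein genes, all tested in every class, 36 fell in erythroid cells, 32 in T and NK cells, 29 in monocyte-gated cells, 26 in basophils, 26 in lymphoid progenitors and 31 in all cells, and none rose in any class. Their median log2 fold changes were -0.53, -0.87, -0.42, -0.48, -0.71 and -0.45, against 0.03, -0.02, 0.02, 0.01, -0.08 and 0.02 over all genes tested there. Of all genes tested 11.2, 3.20, 12.8, 4.33, 1.11 and 12.7% were called lower there. In neutrophils (1.04% of all genes called lower) 1 of 38 fell, *Rpl32*, at a median of -0.22, 14 were lower at an unadjusted p under 0.05, DESeq2 called 8 and the doubled marker limit 16, with medians of -0.40 there and -0.04 under another rule for assigning hashtags (the higher tag at least 4 times the other). In class II DCs none was called by edgeR, 22 were lower at an unadjusted p under 0.05, DESeq2 called 6, that rule for hashtags 11 and the doubled marker limit 2. With libraries as replicates 24 were called in erythroid cells, 9 in lymphoid progenitors, 6 in T and NK cells, 5 in monocyte-gated cells and none in basophils, neutrophils or all cells, while all 38 stayed below 0 in erythroid cells, basophils, lymphoid progenitors, T and NK cells and all cells. Ribosomal protein genes have many near-identical pseudogene copies, so single values among them are uncertain. The higher mitochondrial percentage of the IL1β libraries was present in every class, and its part in these differences was not tested.

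Other genes fell across classes. *Ubb*, a polyubiquitin gene with near-identical copies, fell in 5 classes, from 445 to 660 CPM with vehicle to 164 to 247 CPM with IL1β in monocyte-gated cells (log2 fold change -1.44 ± 0.16, adjusted p = 0.00023). *Ppib* (cyclophilin B, a folding enzyme of the endoplasmic reticulum) fell in 5 classes, from 354 to 454 CPM to 147 to 232 CPM in monocyte-gated cells and from 613 to 994 CPM to 198 to 394 CPM in basophils. *Taf10*, a subunit of the general transcription factor TFIID, and *Atp5g1*, part of the mitochondrial ATP synthase, also fell in 5. In all cells the named genes that fell furthest were *Ifi27l2a* (log2 fold change -2.03 ± 0.34) and *Ifi27* (-1.27 ± 0.14), both interferon-induced, *Rgs10*, a regulator of G-protein signalling (-1.36 ± 0.21), *Blvrb*, a biliverdin reductase abundant in red cell precursors (-1.33 ± 0.36), the histone gene *Hist1h2ae* (-1.25 ± 0.20) and *Bmyc* (-1.24 ± 0.18). Histone genes too have near-identical copies. *Blvrb* was also called lower within neutrophils, monocyte-gated cells, basophils and erythroid cells. Erythroid cells made up less of the IL1β libraries, and the part of free erythroid RNA in the falls outside erythroid cells was not tested.

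**Figure D3:**
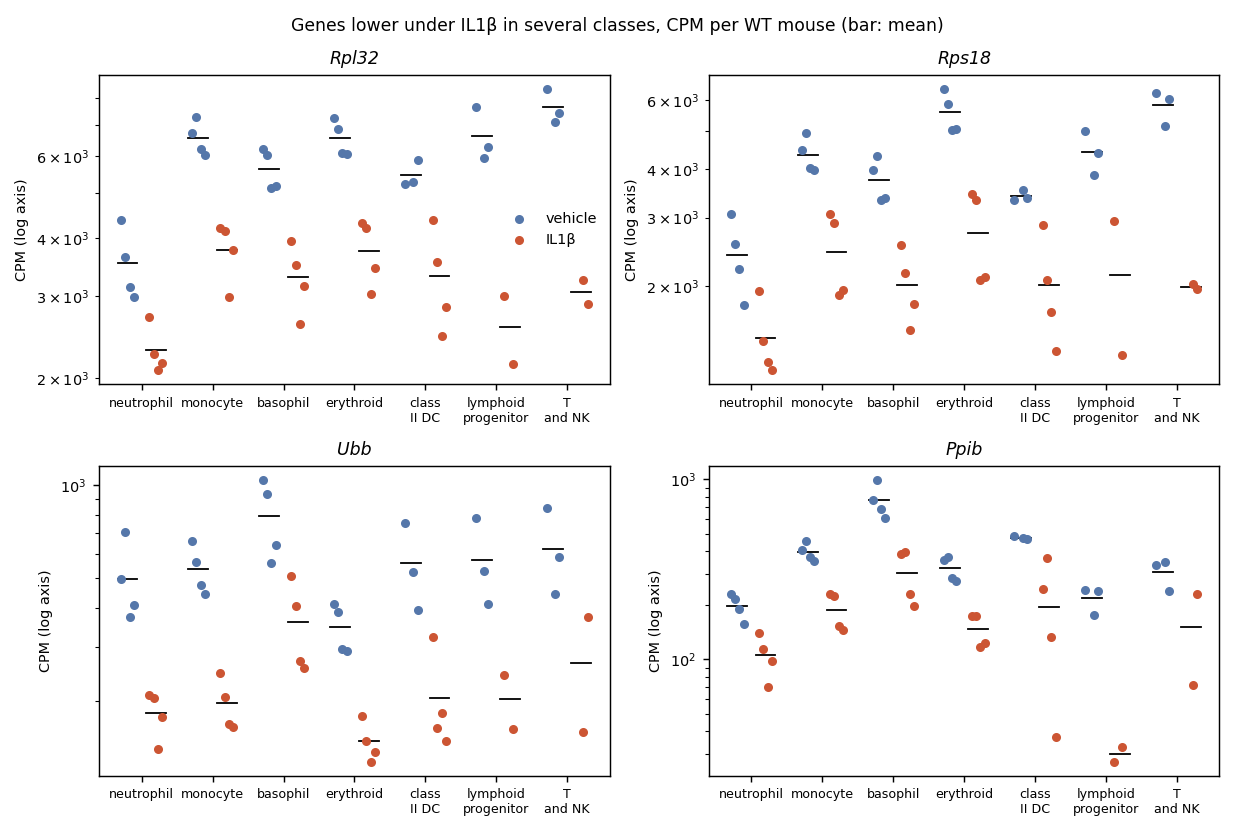
CPM (log axis) of *Rpl32*, *Rps18*, *Ubb* and *Ppib* in each WT mouse within each class, vehicle and IL1β side by side. In erythroid cells, monocyte-gated cells and basophils every IL1β mouse lies below every vehicle mouse for all 4 genes.

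**Figure D4:**
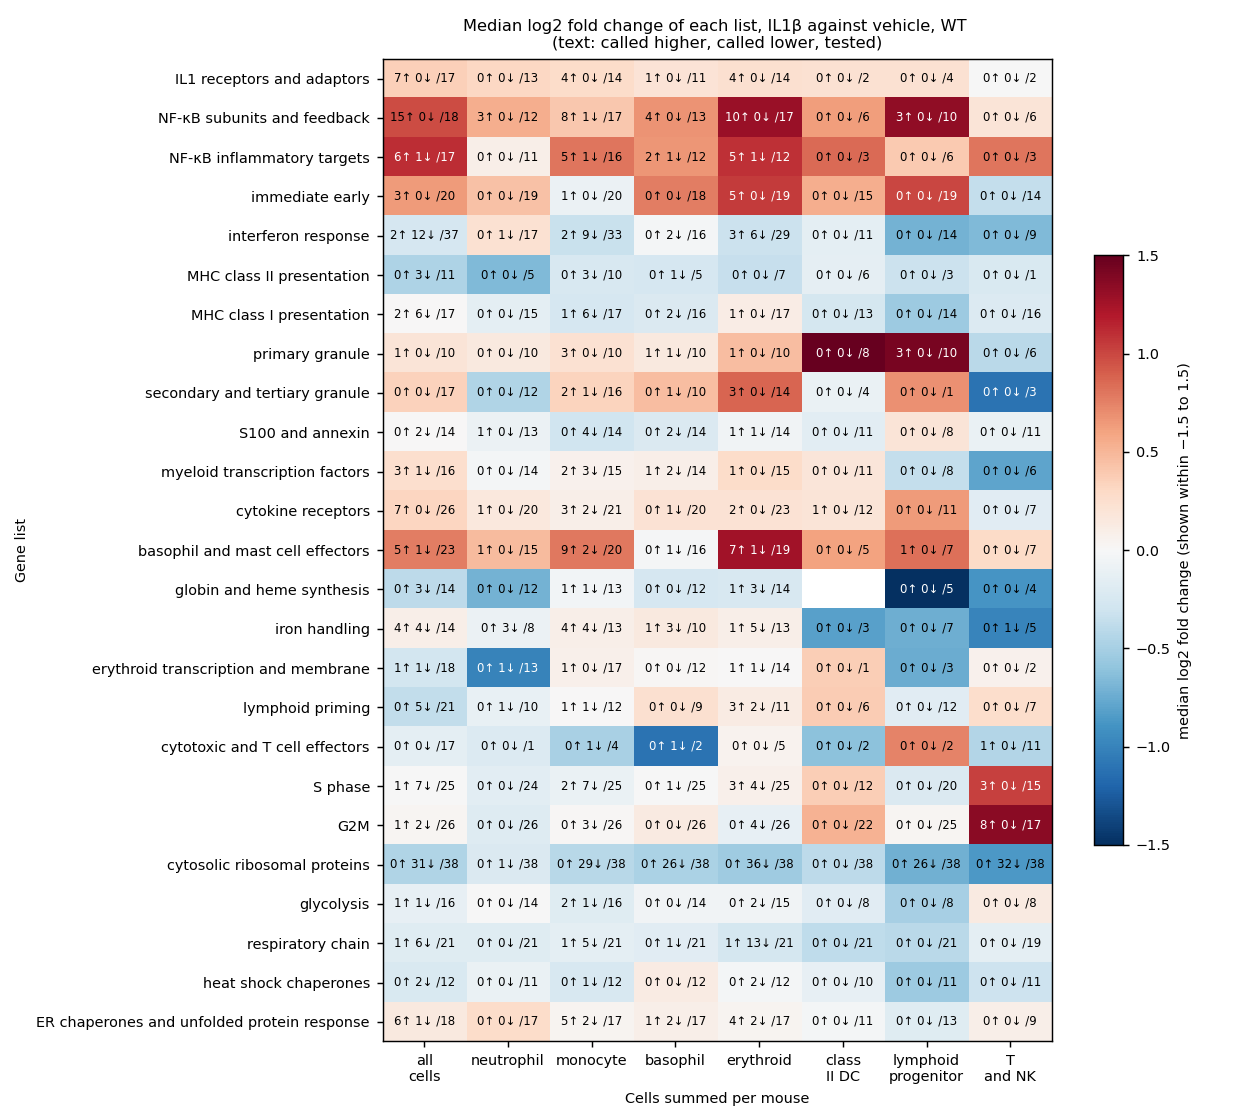
Median log2 fold change (IL1β over vehicle, colour) of each gene list in all cells and in each class, with the number of members called higher and lower printed in each cell. NF-κB subunits and feedback genes have medians above 0 and cytosolic ribosomal proteins medians below 0 (-0.87 to -0.22) in every column, and the blank cell marks a list with no gene tested.

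Over mice, monocyte-gated cells had the most calls of the classes tested, 2586 of 10892 genes (23.7%), 1188 higher (10.9%) and 1398 lower (12.8%), against 911 with libraries as replicates and 1666 without vehicle mouse 1. With libraries as replicates erythroid cells had more, 1471. Of 16 tested NF-κB inflammatory targets 5 rose (2 by library) and 1 fell, of 10 primary granule genes 3 rose, and of 16 secondary and tertiary granule genes 2 rose and 1 fell. *Saa3* went from 0.457, 0, 0.356 and 1.56 CPM with vehicle to 53.3, 63.7, 35.7 and 5.45 CPM with IL1β, with IL1β mouse 4 far below the other 3 (log2 fold change 5.60 ± 1.10, adjusted p = 0.00178). *Wfdc21*, a secreted antimicrobial-type protein, went from 18.7, 69.1, 34.5 and 26.1 CPM to 193, 168, 140 and 121 CPM (5.33-fold, adjusted p = 0.00328). *Gfi1*, a transcriptional repressor that favours the granulocyte over the monocyte fate, went from 12.1, 16.6, 18.0 and 18.9 CPM to 42, 44.1, 42.5 and 52.4 CPM (2.70-fold, adjusted p = 0.00105). These 3 genes kept their calls with libraries as replicates. Of 15 myeloid transcription factors *Gfi1* and *Cebpe*, which drives late granulocyte maturation, rose and *Spi1* (PU.1), *Irf5* and *Irf8* fell, with *Spi1* going from 208 to 235 CPM to 123 to 174 CPM.

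Of all genes tested in monocyte-gated cells 12.8% were called lower and 10.9% higher. Among 33 tested interferon-response genes of the monocyte-gated cells 9 fell and 2, *Gbp3* and *Gbp7*, rose, with a median log2 fold change of -0.33. *Ifi27l2a* went from 225, 116, 150 and 88.9 CPM with vehicle to 23.4, 43.5, 24.4 and 11.3 CPM with IL1β (-2.52 ± 0.44, adjusted p = 0.000873), *Bst2* (tetherin) from 174 to 273 CPM to 90.7 to 117 CPM, and *Ifitm3* from 440 to 766 CPM to 166 to 342 CPM. The groups did not overlap for any of these 3, as for 2619 of all 10892 genes tested in these cells. With libraries as replicates 9 of 38 genes of the list fell and none rose. Of all 11937 genes tested there 553 were called lower and 358 higher. In all cells 12 of 37 interferon-response genes fell and 2 rose, in erythroid cells 6 of 29 fell and 3 rose, in basophils 2 of 16 fell and in neutrophils 1 of 17 fell. Of all genes tested 12.7, 11.2, 4.33 and 1.04% were called lower in these cells, and 13.4% in all cells and 9.21% in erythroid cells higher. The median log2 fold change of the interferon-response genes was -0.03 in basophils and 0.23 in neutrophils. There 8 of 16 and 10 of 17 lay above 0. By library 3 fell in all cells, 7 in erythroid cells and none in basophils or neutrophils. Of all genes tested by library 16 of 14468 were called lower in all cells and 842 of 11797 in erythroid cells. Under the ratio rule for hashtags described above 1 fell in all cells and 1 in erythroid cells, at medians of -0.08 and -0.09 against -0.25 and -0.33. Of 17 MHC class I presentation genes 6 fell in the monocyte-gated cells, among them the immunoproteasome subunits *Psmb8*, *Psmb9* and *Psmb10*, and 1 (*Tap2*) rose. Of 10 tested MHC class II genes 3 fell, the peptide-exchange genes *H2-DMa* and *H2-DMb1* and the protease *Ctss*. The summed level of the class II DC markers was lower in the same cells as well, and its part in this was not tested. Of 14 S100 and annexin genes 4 fell (*S100a10*, *S100a4*, *S100a6* and *Anxa6*), with *S100a4* going from 581 to 707 CPM to 122 to 433 CPM.

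*Ccnd1* (cyclin D1), *Aif1*, an actin-binding protein of monocytes and macrophages, and *Upb1* also fell in monocyte-gated cells, by 1.77, 1.47 and 2.04 on the log2 scale. Markers of other lineages differed in the same cells, where their part in the results was not tested. Basophil markers summed to 26.4 to 45.0 CPM in vehicle and 66.6 to 86.8 CPM in IL1β monocyte-gated cells, plasma cell markers to 111 to 155 and 214 to 221 CPM, and granulocyte progenitor markers to a median of 12850 and 15650 CPM. Class II DC markers, among them MHC class II genes, summed to 43.9 to 69.3 CPM with vehicle and 29.1 to 41.1 CPM with IL1β, macrophage markers to 13.2 to 31.7 and 40.6 to 56.8 CPM, and stem cell markers to 30.5 to 39.8 and 48.6 to 85.4 CPM, all without overlap. Of 20 tested basophil and mast cell effectors 9 rose there, among them *Mcpt8*, *Cpa3* and *Ms4a2*, and 2 fell, where 10.9 and 12.8% of all genes tested were called higher and lower. Basophil markers summed to 54.1 to 115 CPM in IL1β erythroid cells against 17.8 to 27.3 CPM with vehicle, where 7 of 19 such genes rose and 9.21% of all genes tested were called higher. In droplet data free RNA reaches every cell, and its part in these rises was not tested.

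Basophils had 485 of 8057 genes called (6.02%), 136 higher (1.69%) and 349 lower (4.33%), and 5 called with libraries as replicates. Without IL1β mouse 3, vehicle mouse 1, vehicle mouse 4 or IL1β mouse 4 the number was 179, 185, 256 and 292. *Tfrc*, the transferrin receptor that takes up iron, went from 41.5, 21.9, 48.4 and 53.3 CPM with vehicle to 108, 153, 122 and 143 CPM with IL1β (2.73-fold, log2 fold change 1.45 ± 0.18, adjusted p = 0.000156). The ferritin chains *Ftl1* and *Fth1*, which store iron, moved the other way, *Ftl1* from 925, 874, 781 and 817 CPM to 535, 492, 398 and 410 CPM (-0.88 ± 0.14) and *Fth1* from 1055 to 1236 CPM to 714 to 820 CPM. Of 10 tested iron-handling genes *Tfrc* rose and 3, *Ftl1*, *Fth1* and *Blvrb*, fell. Only *Tfrc* of these kept its call with libraries as replicates (log2 fold change 1.43).

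*B4galt6*, a glycolipid galactosyltransferase, rose 6.49-fold, from 0 to 7.34 CPM with vehicle to 28.8, 26.4, 29.5 and 45.2 CPM with IL1β. *Gda* (guanine deaminase) rose 2.79-fold, *Gatm* (creatine synthesis) 2.49-fold and *Mgat5* (glycan branching) 2.15-fold. Basophil function genes were called about as rarely as genes in general, of which 4.33% were called lower and 1.69% higher in basophils. Of 16 tested basophil and mast cell effectors outside the gate 1 fell, *Fcer1g*, the signalling chain of the IgE receptor, from 1467, 1235, 1312 and 1384 CPM to 864, 1022, 662 and 538 CPM (-0.81 ± 0.18, adjusted p = 0.0091), none rose, and the median was -0.01. Gate markers summed to 37720 to 40820 CPM with vehicle and 23650 to 36790 CPM with IL1β. *Igfbp7* (log2 fold change -1.51), *Ifi27* (-1.42) and *Rgs10* (-1.41) fell furthest among named genes, and 4 of 13 NF-κB subunit and feedback genes rose, *Nfkbia*, *Birc3*, *Rela* and *Nfkb1*, where 1.69% of all genes tested were called higher. DESeq2, the ratio rule for hashtags and the doubled marker limit each called 2 of the 13, and the fit with libraries as replicates none of 16.

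Erythroid cells had 2102 of 10311 genes called (20.4%), 950 higher (9.21%) and 1152 lower (11.2%), against 1471 with libraries as replicates, whose cells included the untagged majority, and 1345 and 1379 without vehicle mouse 1 or IL1β mouse 3. Of 17 tested NF-κB subunit and feedback genes 10 rose, at a median log2 fold change of 1.29, and with libraries as replicates 13 of 18 did. *Junb*, an AP-1 subunit, went from 53.4, 34.9, 32.4 and 27.0 CPM with vehicle to 160, 179, 137 and 150 CPM with IL1β (4.13-fold, adjusted p = 8.4e-05), and 5 of 19 immediate early genes rose, the others being *Ier2*, *Ier3*, *Ier5* and *Jund*. *Nfkbiz* rose 7.04-fold and *Icam1* 7.60-fold.

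*Tfrc* rose in erythroid cells too, from 328, 332, 336 and 329 CPM to 578, 670, 655 and 562 CPM (1.86-fold, adjusted p = 3.19e-05), and here 5 of 13 iron-handling genes fell, *Ftl1*, *Fth1*, *Blvrb*, *Glrx5* and *Steap3*. *Ftl1* went from 792 to 1017 CPM to 460 to 523 CPM and *Blvrb* from 948 to 1329 CPM to 523 to 670 CPM. Of all genes tested in erythroid cells 11.2% were called lower and 9.21% higher. Of 14 globin and heme synthesis genes 3 fell, *Urod*, *Hbb-bs* and *Hba-a2*, and *Fech*, the last enzyme of heme synthesis, rose. *Hbb-bs*, an adult β-globin with a near-identical copy, stood at 1349, 1618, 1909 and 876 CPM with vehicle and 420, 862, 640 and 1072 CPM with IL1β, so that the groups overlapped (-0.95 ± 0.28, adjusted p = 0.0205), and its call was lost with libraries as replicates. *Zfpm1* (FOG1), the cofactor of GATA1, fell from 216 to 243 CPM to 158 to 181 CPM and *Tal1*, an erythroid transcription factor, rose from 154 to 161 CPM to 189 to 239 CPM. Of 21 respiratory chain genes 13 fell and 1 (*Sdha*) rose. Among other named genes *Cpd* (2.52-fold) and *Gda* (2.26-fold) rose, and *Polr2j*, an RNA polymerase II subunit, and the linker histone *Hist1h1e* fell.

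Neutrophil-gated cells had 113 of 7299 genes called (1.55%), 37 higher (0.507%) and 76 lower (1.04%). Markers of other lineages differed in these cells too, and their part in the results was not tested. Basophil markers summed to 29.4 to 76.2 CPM with vehicle and 84.1 to 115 CPM with IL1β. Plasma cell markers summed to 101 to 116 CPM with vehicle and 161 to 268 CPM with IL1β. *Ccr1*, a chemokine receptor, went from 13.3, 13.1, 28.9 and 34.4 CPM with vehicle to 66.4, 87.0, 41.5 and 50.8 CPM with IL1β (3.05-fold, adjusted p = 0.0367). *S100a6*, a calcium-binding protein, went from 737, 933, 723 and 1082 CPM to 2014, 3513, 1192 and 1325 CPM (2.33-fold, adjusted p = 0.0471), whereas it fell in monocyte-gated cells. *Orm1*, an acute-phase orosomucoid, went from 117, 177, 91.3 and 111 CPM to 25.8, 72.2, 42.6 and 25.4 CPM (-1.51 ± 0.31, adjusted p = 0.0191). *Orm1* kept its call with libraries as replicates and the other 2 did not.

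*Klhl24* and *Hacd4* rose 2.37-fold each and *Samd1* and the histone genes *Hist1h1e*, *Hist1h2ae* and *Hist1h2ap* fell in neutrophil-gated cells. Of 12 secondary and tertiary granule genes outside the gate none was called by edgeR, DESeq2 called 1 lower, 6 were lower at an unadjusted p under 0.05, and the median log2 fold change was -0.45. The gate gene *Camp*, a secondary granule cathelicidin, fell by 1.21 on the log2 scale. The other gate genes were not called, with *Retnlg* at a mean of 1421 CPM with vehicle and 2812 CPM with IL1β without overlap (adjusted p = 0.0596), *Mmp8* at a log2 fold change of 0.61 and *Ngp* at -0.66. *Lcn2* was at 6503, 8439, 7610 and 9213 CPM with vehicle and 3931, 7875, 3208 and 1826 CPM with IL1β (adjusted p = 0.0788), IL1β mouse 2 lying among the vehicle mice. Of 10 primary granule genes none was called by edgeR or DESeq2, 2 were higher at an unadjusted p under 0.05, and 2 were called higher with the marker limit doubled. Of 12 tested NF-κB subunit and feedback genes 3 rose, *Tnfaip3*, *Nfkbia* and *Tnip1*, where 0.507% of all genes tested were called higher. DESeq2 called 1 of the 12, the fit with libraries as replicates 1 of 15 and the ratio rule for hashtags none. The number of called genes was 5, 8 and 47 without vehicle mouse 2, 1 or 3, 49, 14 and 75 without IL1β mouse 1, 3 or 4, and 227 without IL1β mouse 2.

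**Figure D5:**
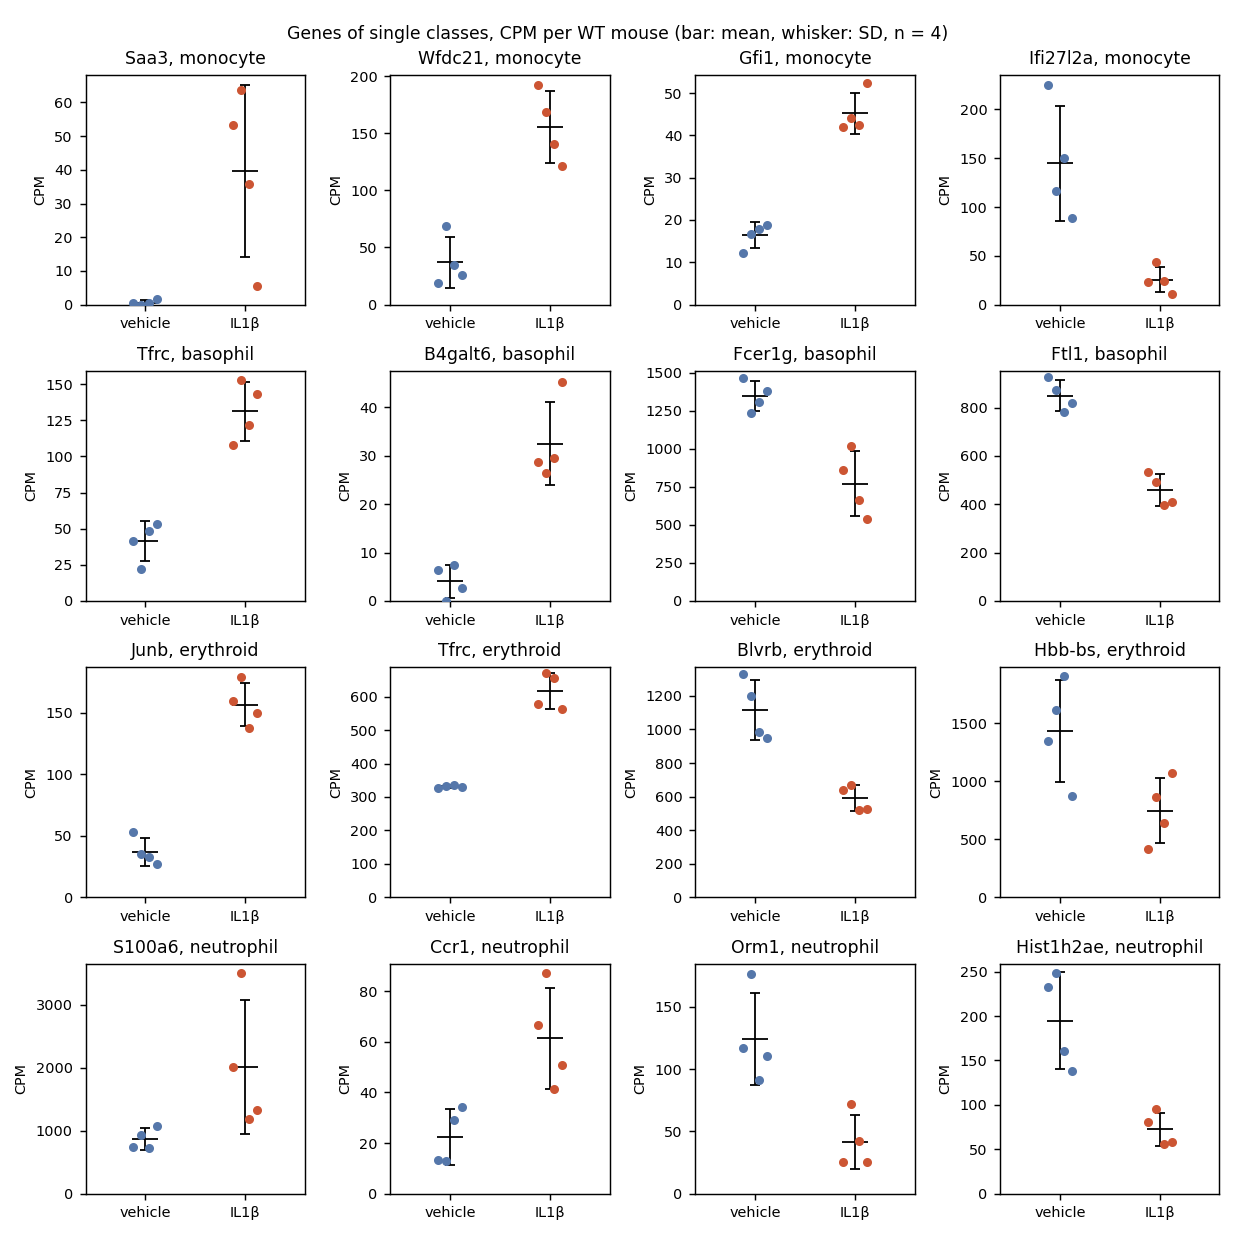
CPM in each WT mouse of 4 genes in each of monocyte-gated cells (*Saa3*, *Wfdc21*, *Gfi1*, *Ifi27l2a*), basophils (*Tfrc*, *B4galt6*, *Fcer1g*, *Ftl1*), erythroid cells (*Junb*, *Tfrc*, *Blvrb*, *Hbb-bs*) and neutrophils (*S100a6*, *Ccr1*, *Orm1*, *Hist1h2ae*), on axes from 0, with a bar at the mean and a whisker of 1 SD. The groups separate in every panel except *Hbb-bs*, where IL1β mouse 4 (1072 CPM) lies above vehicle mouse 4 (876 CPM). For genes named by the size of their fold change, a lack of overlap was a condition of being named.

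Class II DCs could be tested in 7 mice, since vehicle mouse 2 had 4 such cells. Of 2679 genes 3 were called (0.112%), 1 higher (0.0373%) and 2 lower (0.0747%), with 399 at an unadjusted p under 0.05 and 38 called by DESeq2. Without IL1β mouse 1, IL1β mouse 2, IL1β mouse 3 or vehicle mouse 3 the number was 35, 25, 1 and 6. *Cxcr4*, the receptor for the marrow-retaining chemokine CXCL12, went from 139, 75.0 and 85.1 CPM in vehicle mice 1, 3 and 4 to 265, 367, 477 and 370 CPM in IL1β mice (3.76-fold, log2 fold change 1.91 ± 0.31, adjusted p = 0.00194). *Tmsb10*, an actin-sequestering thymosin, went from 6372, 4491 and 5531 CPM to 2482, 2772, 3206 and 2849 CPM (-0.95 ± 0.15, adjusted p = 0.00194), and *Sh3bgrl3* fell from 2090 to 2412 CPM to 835 to 1336 CPM. *Cxcr4* and *Tmsb10* kept their calls with libraries as replicates, and *Cxcr4* lost its call without IL1β mouse 3 or vehicle mouse 4 (log2 fold change 1.61 and 1.74). MHC class II presentation genes outside the gate were not called, with *Cd74*, the invariant chain, at 8361 to 10250 CPM with vehicle and 7443 to 9436 CPM with IL1β (adjusted p = 0.673). Plasmacytoid DCs, with 76 vehicle and 9 IL1β cells, were too few for a comparison of genes.

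Lymphoid progenitors could be tested in IL1β mice 1 and 3 (13 and 10 cells) against vehicle mice 1, 3 and 4 (33, 68 and 43 cells). Of 4324 genes 63 were called (1.46%), 15 higher (0.347%) and 48 lower (1.11%). With DESeq2 size factors in the same test 15 rose and 25 fell, and the median over all genes moved from -0.08 to 0.04. Without IL1β mouse 3, IL1β mouse 1, vehicle mouse 1 or vehicle mouse 4 the number was 3, 30, 32 and 41. *Tnfaip3* was at 0, 24.2 and 0 CPM with vehicle and 135 and 391 CPM with IL1β (log2 fold change 4.25 ± 0.77), *Nfkbiz* at 66.1, 68.7 and 23.3 CPM and 108 and 749 CPM (2.86 ± 0.51), and *Pim1*, a survival kinase, at 275, 162 and 240 CPM and 298 and 1238 CPM (1.78 ± 0.35). IL1β mouse 3 was the higher of the pair for all 3. *Tfe3* was at 0 in the 3 vehicle mice and at 54.1 and 130 CPM in the IL1β mice, and reached the 30 CPM needed for naming only in the latter. In so few cells single UMIs weigh heavily. The smallest sum of a marker list above 0 was 27.4 CPM in IL1β mouse 1 and 33.4 CPM in IL1β mouse 3. A level of 0 means that no UMI was seen, and the fold changes of such genes are uncertain.

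Of 12 tested lymphoid priming genes outside the gate none was called by edgeR or DESeq2 and 3 were lower at an unadjusted p under 0.05, the leading one being *Mef2c*, a transcription factor of lymphoid fate, at 876 to 907 CPM with vehicle and 622 and 293 CPM with IL1β (adjusted p = 0.128). Of 10 tested primary granule genes of granulocyte progenitors *Elane*, *Mpo* and *Prtn3* rose, where 0.347% of all genes tested were called higher. At an unadjusted p under 0.05 in edgeR's test 6 of the 10 were higher. Granulocyte progenitor markers summed to 4103 and 467 CPM in IL1β mice 1 and 3 and to 752, 375 and 512 CPM in vehicle mice 1, 3 and 4. Among the mice left out for too few cells, vehicle mouse 2 (9 cells) was at 3298 CPM. IL1β mice 2 and 4 (5 and 8 cells) were at 592 and 294 CPM. A single mouse thus stood apart in each group, and only that of the IL1β group entered the fit. The part of this in the rise was not tested. *Myl10* (log2 fold change -2.35) and *Eef1d* (-1.64) fell and lost their calls with libraries as replicates, and *Myl10* turned to 1.02 under the ratio rule for hashtags.

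T and NK cells could be tested in IL1β mice 3 and 4 (35 and 38 cells, from 1 library) against vehicle mice 1, 3 and 4 (18, 60 and 44 cells), so that treatment could not be told apart from that library. Of 2313 genes 106 were called (4.58%), 32 higher (1.38%) and 74 lower (3.20%). *Top2a*, the topoisomerase of dividing cells, went from 336, 318 and 146 CPM to 1122 and 1532 CPM (5.04-fold, adjusted p = 0.00267), and *Cenpf*, a kinetochore protein, from 48.1, 57.9 and 53.2 CPM to 460 and 489 CPM (8.55-fold). Of 17 tested G2M genes 8 rose and of 15 S phase genes 3, and all 17 and all 15 had log2 fold changes above 0, while DESeq2 called 5 of the G2M genes higher and the fit with libraries as replicates 1 of 20. Of the gate genes of the same cells *Ccl5* fell (-1.40), and among those not called the T cell genes *Cd3g* (-1.06) and *Cd3d* (-0.91) were lower and the NK cell gene *Ncr1* (0.76) higher without overlap, whose part in the result was not tested. Between these few mice 806 of all 2313 genes tested did not overlap. *Gzma* (granzyme A) was the only one of 11 cytotoxic and T cell effectors called and rose 4.92-fold, losing its call without either IL1β mouse, while *Xcl1*, a chemokine of activated lymphocytes, and *Mxd4*, a MYC antagonist, fell. With both IL1β libraries as replicates 15 genes were called, with *Top2a* among them, and without IL1β mouse 3 or IL1β mouse 4 58 and 35 were.

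Whether the IL1β response of WT mice differed from that of *Tet2*-KO mice was tested as the interaction in the same fit. No gene was called in all cells, neutrophil, monocyte-gated, basophil, erythroid, class II DC or lymphoid progenitor cells, where 407, 381, 384, 401, 264, 118 and 206 genes had an unadjusted p under 0.05, or 3.1, 5.22, 3.53, 4.98, 2.56, 4.40 and 4.76% of those tested. In T and NK cells 6 genes were called, 5 of them among the WT calls, and named ones among these were *Cenpe*, *Cenpf*, *Top2a* and *Mxd4*, while 290 of 2313 genes (12.5%) had an unadjusted p under 0.05. The log2 fold change of the plasmacytoid DC share was -2.96 in WT and -2.39 in *Tet2*-KO mice (adjusted p of the difference = 0.705).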

How the data were processed

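Single-cell RNA-seq of Lin- bone marrow (10x Chromium 3′) was deposited as raw UMI counts per gene and cell, with hashtag counts per cell in the same libraries. The authors made these count matrices with Cell Ranger (3.1.0) on mm10 and processed them in Seurat (3.2.3), per the labels and the study's methods. Doublets were treated by hashtag alone: HTODemux (Seurat 5.3.0, seed 42) assigned cells to mice, and doublets between the 2 mice of a library were dropped. No other caller was run.

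UMIs were summed per mouse for all cells and each gate (at least 10 cells a mouse). edgeR (4.0.16, R 4.3.3; filterByExpr, TMM, quasi-likelihood test, Benjamini-Hochberg) was fitted on all 16 mice, with the contrast IL1β minus vehicle in WT mice. CPM of genes scale a mouse's summed counts by its total over the genes that passed the filter, adjusted by TMM. CPM of *Xist*, of summed marker lists and of the single macrophage markers scale by total UMIs instead. Shares were tested on cell numbers by edgeR and by exact permutation in R (4.3.3). Intervals and limits cover counting error only.

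The alternatives were DESeq2 (1.42.0), DESeq2 size factors, no filter, WT mice only, leaving out each mouse, the pool number as a block, a ratio rule for hashtags (the higher tag at least 4 times the other and at least 10 counts), the library as replicate, and a marker limit of 40. Named genes were up to 6 in each direction per class, called, not overlapping, with at least 30 CPM in the higher group, outside the marker lists; up to 12 in each direction called in 4 or more classes; 3 members of each described list with the smallest p; and every IL1 gene. Other genes are named only as the members behind a count of their list, after their values were seen. The members and lists were chosen with earlier results of these data known. *Tet2*-KO mice entered the fit and the interaction only.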

Additional observations from a re-analysis of the deposited data

Results flagged for a closer look

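In 26 of 451 groups of 4 mice 1 value stood apart from the other 3 by more than Dixon's 95% critical value for 4 values, where chance alone gives about 1 in 20 groups. In all cells these were *Il1b* at 8.211 CPM and *Il1a* at 2.174 CPM, both in vehicle mouse 2, and *Ier3* at 49.77 CPM and *Sigirr* at 11.29 CPM in vehicle mouse 1. In neutrophil-gated cells *Klhl24* stood at 13.36 CPM in vehicle mouse 3, *Mpo*, the myeloperoxidase of primary granules, at 1438 CPM in IL1β mouse 2, and *Rpl13* at 2485 CPM in vehicle mouse 1 and 1610 CPM in IL1β mouse 1. In monocyte-gated cells vehicle mouse 2 stood apart for *Cd69* (91.25 CPM), *Atp5g1* (738.3 CPM) and *S100a4* (580.7 CPM), vehicle mouse 1 for *Bst2* (272.6 CPM), IL1β mouse 3 for *Anxa6* (77.15 CPM) and *Rpl21* (1310 CPM), and IL1β mouse 4 for *Irf5* (15.08 CPM). In basophils *B4galt6* stood at 45.25 CPM in IL1β mouse 4, *Tnfaip3* at 546.3 CPM in IL1β mouse 1, and *Gatm* at 10.93 CPM and *Isg20* at 65.56 CPM in vehicle mouse 2. In erythroid cells *Ier3* stood at 9.283 CPM in vehicle mouse 1. In class II DCs *Nfkbiz* (285.3 CPM) and *Nfkbia* (489.1 CPM) stood apart in IL1β mouse 2 and *Cd69* (132.6 CPM) in IL1β mouse 1. Among the shares, monocyte-gated cells stood apart at 11.75% in vehicle mouse 2 and at 17.96% in IL1β mouse 1, and lymphoid progenitors at 0.563% in IL1β mouse 4.

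In T and NK cells the response to IL1β differed between WT and *Tet2*-KO mice for 4 named genes by the interaction term of edgeR's quasi-likelihood test (adjusted p = 0.048 for each). The log2 fold change in WT less that in *Tet2*-KO mice was 6.38 for *Cenpe*, a kinesin of the kinetochore, 4.293 for *Cenpf*, 2.718 for *Top2a* and -2.943 for *Mxd4*. The log2 fold change of *Top2a* was 2.33 in WT and -0.39 in *Tet2*-KO mice. The WT side rested on 2 IL1β mice of 1 library, with 35 and 38 cells.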

How the results depend on the processing

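Class shares kept their side of the threshold for plasmacytoid DCs under every alternative (leaving out each mouse gave log2 fold changes of -3.23 to -2.72). With libraries as replicates the called genes numbered 106 (all cells), 13 (neutrophil), 911 (monocyte-gated), 5 (basophil), 6 (class II DC), 29 (lymphoid progenitor) and 15 (T and NK), and of 220 calls of named genes over mice (a gene counted once in each class) 109 were lost and none reversed. Under the ratio rule for hashtags the numbers were 782 (all cells), 3 (neutrophil), 228 (basophil), 1126 (erythroid) and 66 (class II DC). Without the filter on low counts they were 226 (neutrophil), 70 (class II DC) and 126 (lymphoid progenitor), with WT mice only 75 (neutrophil) and 36 (class II DC), and with the marker limit doubled 443 (neutrophil), 1443 (monocyte-gated), 1275 (erythroid) and 15 (class II DC). DESeq2 called 38 (class II DC) and 35 (lymphoid progenitor), and DESeq2 size factors gave 40 in lymphoid progenitors. Leaving out each mouse gave 2228 to 3278 in all cells, 5 to 227 in neutrophils, 1666 to 2573 in monocyte-gated cells, 179 to 474 in basophils, 1345 to 1995 in erythroid cells, 1 to 35 in class II DCs, 3 to 50 in lymphoid progenitors and 35 to 95 in T and NK cells. Fewer mice enter those fits, and the cause of the other differences was not tested.

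Leaving out each mouse gave log2 changes of share of -0.25 to 0.96 (neutrophil, 0.20 with all mice), -0.26 to 0.027 (monocyte-gated, -0.05), 0.66 to 1.0 (basophil), -0.77 to -0.28 (erythroid, -0.54), -1.21 to -0.49 (class II DC), -2.72 to -1.96 (lymphoid progenitor) and -1.33 to 0.56 (T and NK, -0.06). The ratio rule gave 0.20 for monocyte-gated cells, and libraries as replicates 1.01 for basophils. Named genes that were not called and changed sign were *Il1a* (0.70 without vehicle mouse 2, over -1.42 to 0.70 without each mouse) and *Il1r1* (0.15 by library), *Irak2* (0.0047 without the filter, 0.079 without IL1β mouse 1, 0.036 without vehicle mouse 1 and 0.0075 without vehicle mouse 4, over -0.065 to 0.079) in all cells, and *Mef2c* (0.0061) and *Taf10* (0.36) in lymphoid progenitors under the ratio rule. In T and NK cells these were *Cd69* (-1.20 without IL1β mouse 4 and -0.066 with the limit doubled), *Nfkbiz* (-1.01 without IL1β mouse 4 and 2.40 without IL1β mouse 3), *Ssr3* (-0.045 without IL1β mouse 3, -0.14 without vehicle mouse 4, 0.45 without vehicle mouse 1, -0.26 with the limit doubled and -0.27 by library) and *Tnfaip3* (0.72 without IL1β mouse 3, -5.26 without IL1β mouse 4, 0.16 without vehicle mouse 3, 0.23 with the pool block, 0.14 under the ratio rule and 1.02 by library). *Myl10* in lymphoid progenitors was the only called gene to reverse, at 1.02 under the ratio rule.

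Pool numbers shared by the groups mark no common animal, litter or day in the labels. Deviations of same-numbered pools correlated at 0.18 to 0.28 in 5 of the 6 pairs of groups, with WT vehicle and WT IL1β at 0.28, and at -0.016 in the other pair, so whether the numbers mark a shared batch was not settled and the fit without the block was kept. With the pool number as a replicate block the called genes numbered 3558 (all cells), 141 (neutrophil), 2507 (monocyte-gated), 556 (basophil), 2130 (erythroid), 25 (class II DC), 82 (lymphoid progenitor) and 126 (T and NK).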

Other observations

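Plasma cells, eosinophils and megakaryocytes, 3 classes outside the compared lineages, were also counted per mouse. Plasma cells, the antibody-secreting end of the B lineage, made up 0.697, 1.00, 1.72 and 0.705% of assigned cells with vehicle and 1.66, 2.41, 1.04 and 7.11% with IL1β. IL1β mouse 4 stood far above the other mice and IL1β mice 1 and 3 lay within the vehicle range (adjusted p = 0.0644 by edgeR's quasi-likelihood test on cell numbers, over these 3 classes, and two-sided exact permutation p = 0.114). Eosinophils averaged 0.391% ± 0.179 with vehicle and 0.665% ± 0.0859 with IL1β (SD, n = 4 each, exact permutation p = 0.0571), and megakaryocytes 2.74% ± 1.54 and 3.45% ± 1.57 (exact permutation p = 0.571). Vehicle mouse 2, with 698 cells, had the highest megakaryocyte share of the 8 mice, 5.01%.

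Macrophage markers (*C1qa*, *C1qb*, *C1qc*, *Vcam1*, *Adgre1* and *Cd5l*) summed to 8.66 to 17.1 CPM over all cells of vehicle mice and to 39.5 to 53.4 CPM in IL1β mice, with no overlap. *Vcam1*, at 82.5 CPM in neutrophil-gated and 22.6 CPM in monocyte-gated WT cells, led the list there, and the C1q genes stood at most at 1.16 CPM in these 2 gates. Within erythroid cells the list summed to 0 to 1.91 CPM with vehicle and 4.69 to 11.9 CPM with IL1β.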
